A study of Mus musculus with 6 samples.

Results

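Transcript levels of 9 genes of Jak-Stat signalling were examined in colorectal tissue of colitis mice. They were the STAT factor genes Stat2, Stat4, Stat5a, Stat5b and Stat6, the Janus kinase genes Jak1 and Jak2, and the feedback inhibitor genes Socs1 and Cish. Members were taken by gene symbol from the deposited table, in which all 9 were found among 18268 genes. The mice were adult C57BL/6 males. Colitis had been induced in all of them by 7 days of dextran sulfate sodium (DSS) in the drinking water, and each was gavaged with its drug over 6 days. Berberine (BBR), an alkaloid from plants, was given to 3 mice, and sulfasalazine (SASP), an established colitis drug of the aminosalicylate class, to the other 3. The study compared the drugs each at its most effective dose, which was higher for SASP than for BBR. The sample labels give no dose. Values are FPKM, fragments per kilobase of transcript scaled to mapped reads, a unit that corrects for gene length and so allows levels of different genes to be compared. Healthy mice and colitis mice without a drug were not analysed here, so each difference is between the drugs and cannot be assigned to one of them. The study speaks of rectal samples for its berberine sequencing and of colon samples for its sulfasalazine sequencing. A difference in site between the groups could not be told apart from the drug. The estimated depth was 16400000 to 18200000 reads per mouse, similar in both groups.

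Janus kinases sit on the inner side of cytokine receptors. When a cytokine binds, they phosphorylate the receptor and then STAT proteins, which pair up, enter the nucleus and switch on target genes. Different cytokines use different STAT proteins. In the gut, interferons act through STAT complexes that raise antiviral genes, interleukin-12 acts through Stat4 in lymphocytes, growth hormone and interleukin-2 act through Stat5a and Stat5b, and interleukin-4 and interleukin-13 act through Stat6. Socs1 and Cish belong to the SOCS family, whose genes are induced by STAT proteins and whose products dampen the same pathway, Socs1 mainly after interferon and Cish mainly after Stat5 activation.

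Promoter sequences are shown for the 3 members whose BBR and SASP values did not overlap. The promoters were searched for the letters of DNA motifs of the kind that STAT complexes bind. The windows come from RefSeq on build GRCm38.p6, span 250 bases before to 50 bases after the annotated start, and were matched by gene symbol for all 9 members, 12 windows in all. The table of expression values was made on an older build, mm9, and carries no coordinates. Capitals mark matches to 3 motifs, each searched on both strands. These were the gamma-activated site (GAS, TTCNNNGAA), its wider form preferred by Stat6 (TTCNNNNGAA) and the core of the interferon-stimulated response element (ISRE, GAAANNGAAA). The Socs1 window lies at chr16:10785487-10785786 on the minus strand, the Stat2 window at chr10:128270248-128270547 on the plus strand, and the Cish window at chr9:107296409-107296708 on the plus strand.
Socs1: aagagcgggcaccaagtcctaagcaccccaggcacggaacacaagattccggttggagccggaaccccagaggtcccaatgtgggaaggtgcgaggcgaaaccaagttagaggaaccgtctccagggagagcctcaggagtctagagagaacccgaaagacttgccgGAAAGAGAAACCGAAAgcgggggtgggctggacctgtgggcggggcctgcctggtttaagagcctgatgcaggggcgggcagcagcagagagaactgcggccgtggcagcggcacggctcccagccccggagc
Stat2: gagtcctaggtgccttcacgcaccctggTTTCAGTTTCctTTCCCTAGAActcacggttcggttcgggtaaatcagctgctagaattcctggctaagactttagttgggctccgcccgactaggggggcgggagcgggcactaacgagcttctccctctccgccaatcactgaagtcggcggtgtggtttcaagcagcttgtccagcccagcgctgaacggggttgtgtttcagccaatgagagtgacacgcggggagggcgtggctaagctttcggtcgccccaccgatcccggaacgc
Cish: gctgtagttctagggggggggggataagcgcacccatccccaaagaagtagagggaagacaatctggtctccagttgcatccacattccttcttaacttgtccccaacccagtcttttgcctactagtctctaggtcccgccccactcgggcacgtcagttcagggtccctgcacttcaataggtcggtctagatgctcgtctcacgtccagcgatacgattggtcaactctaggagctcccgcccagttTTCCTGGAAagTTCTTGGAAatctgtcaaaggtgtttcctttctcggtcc

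The Socs1 window held 2 ISRE cores, with their first bases at positions -83 and -77 from the start, which share letters with each other. The Stat2 window held 1 ISRE core read on the opposite strand, at position -222, and 1 wider GAS at -210. The Cish window held 2 GAS motifs, with their first bases at positions 1 and 12, and no ISRE core. Among all 32851 RefSeq windows of the same length, 3.44% held the ISRE core, 8.30% the GAS and 6.95% the wider GAS. Of the other members, Stat4 had an ISRE core in 1 of its windows, and no match was found in the windows of Stat5a, Stat5b, Stat6, Jak1 and Jak2. A match describes letters only and does not show that a factor was bound.

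Stat2 and Socs1 were lower in mice receiving BBR than in mice receiving SASP, and no other member passed the threshold. The comparison used limma on log2(FPKM + 1) over all 12072 genes with at least 1 FPKM in at least 3 mice, with a Benjamini-Hochberg adjusted p under 0.05. Of the 9 members, 8 passed that filter and Stat4 did not. Of these 8, 2 were called lower and 0 higher, where 8.86% of all tested genes were called, 5.04% lower and 3.82% higher. The median log2 fold change of the 8 members was 0.18, against 0.10 over all tested genes. Groups did not overlap in 3 of the 8, Stat2, Socs1 and Cish, a share close to the 37.9% seen over all tested genes. Tissue was measured in bulk, so fewer cells of a type and less RNA per cell cannot be told apart.

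**Figure D1:**
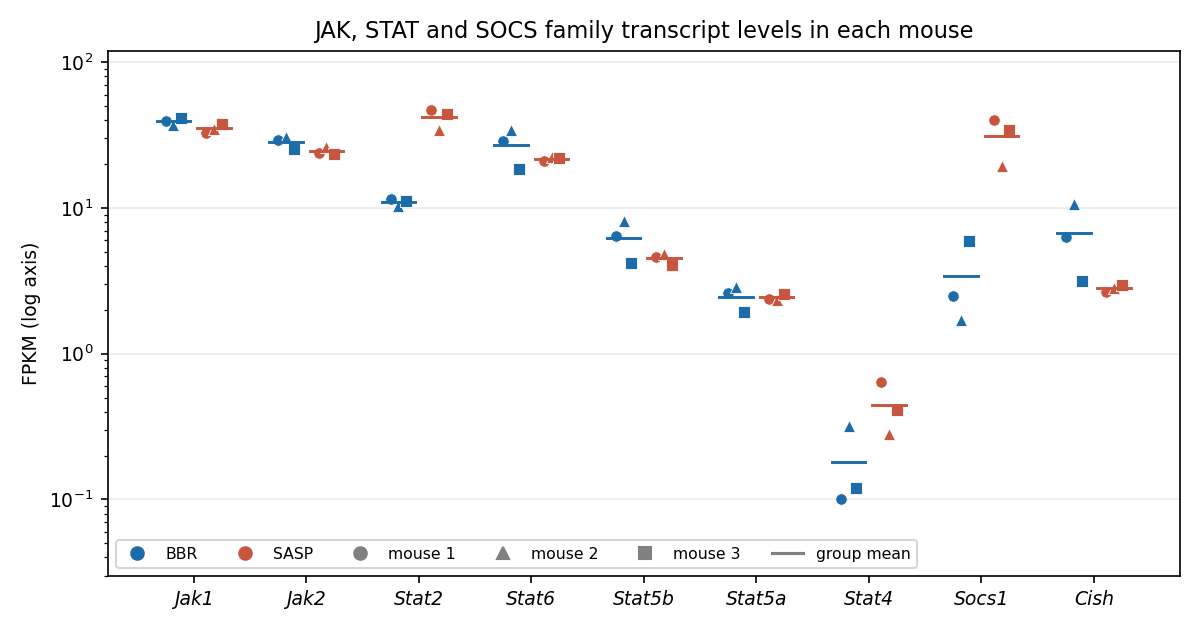
FPKM on a log axis (vertical) of each of the 9 genes (horizontal) in 3 BBR mice (blue) and 3 SASP mice (red); marker shape gives the mouse and bars give the group mean. Stat2 and Socs1 lie lower in every BBR mouse than in any SASP mouse, Cish lies higher, and the other 6 genes overlap.

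Stat2 encodes the STAT subunit that carries the transactivation domain of ISGF3, the complex formed after type I and type III interferon. Its level was 11.5, 10.3 and 11.3 FPKM in BBR mice 1, 2 and 3, and 47.3, 34.2 and 44.4 FPKM in SASP mice 1, 2 and 3. The lowest SASP mouse was far above the highest BBR mouse. Group means were 11.0 ± 0.618 FPKM under BBR and 42.0 ± 6.89 FPKM under SASP (SD, n = 3 each), so the mean was 3.82 times as high under SASP. On the log2(FPKM + 1) scale Stat2 was lower by 1.83 under BBR than under SASP (SE 0.14, 95% interval -2.161 to -1.495, limma adjusted p = 0.00187). The call was kept in each of the 6 fits that left out 1 mouse. It was lost once the mean log2 level of 10 smooth muscle genes entered the fit as a covariate, where the difference was -1.64 (adjusted p = 0.0572).

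Socs1 encodes an inhibitor that binds Janus kinases and curbs interferon responses. It stood at 2.49, 1.71 and 5.97 FPKM in BBR mice 1, 2 and 3, and at 40.1, 19.5 and 34.5 FPKM in SASP mice 1, 2 and 3. BBR mouse 3 was the highest of its group and SASP mouse 2 the lowest of the other, yet the groups stayed apart. Means were 3.39 ± 2.27 and 31.4 ± 10.6 FPKM (SD, n = 3 each), 9.25 times as high under SASP. Socs1 was lower under BBR by 2.94 on the log2(FPKM + 1) scale (SE 0.40, 95% interval -3.880 to -2.004, limma adjusted p = 0.0132). This was the largest difference among the 8 tested members. The call depended on single mice and was lost without BBR mouse 1 (-2.84, adjusted p = 0.0559), SASP mouse 1 (-2.74, adjusted p = 0.0673) or SASP mouse 3 (-2.85, adjusted p = 0.0719). It was also lost with the smooth muscle covariate (-2.99, adjusted p = 0.148). Of the 3 promoters shown above, chosen because their groups did not overlap, those of Socs1 and Stat2 held ISRE cores. So did 1 window of Stat4, which is not shown. A link between these motifs and the differences was not tested.

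Cish, the other feedback gene, went the opposite way without passing the threshold. It encodes an SH2 protein that occupies receptor sites used by Stat5. Its level was 6.37, 10.7 and 3.16 FPKM in BBR mice 1, 2 and 3, and 2.64, 2.83 and 2.97 FPKM in SASP mice 1, 2 and 3. The groups did not overlap, but BBR mouse 3 lay only just above the SASP mice. Means were 6.75 ± 3.79 and 2.81 ± 0.166 FPKM (SD, n = 3 each). The log2 fold change was 0.90 (SE 0.35, 95% interval 0.08 to 1.72, limma adjusted p = 0.130). Without BBR mouse 3 it was 1.29 and passed the threshold (adjusted p = 0.00800).

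The balance of both feedback genes differed within each mouse. Socs1 was 0.391, 0.160 and 1.89 times as high as Cish in BBR mice 1, 2 and 3, and 15.2, 6.90 and 11.6 times as high in SASP mice 1, 2 and 3. Cish exceeded Socs1 in BBR mice 1 and 2, and Socs1 exceeded Cish in BBR mouse 3 and in all SASP mice. The ratios are given as a description, because with 3 mice a group the lowest two-sided p of an exact permutation test is 0.10.

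Stat6, which carries interleukin-4 and interleukin-13 signals, was at 28.9, 34.3 and 18.6 FPKM in BBR mice 1, 2 and 3. In SASP mice 1, 2 and 3 it was at 21.0, 22.5 and 21.96 FPKM. BBR mice 1 and 2 lay above all SASP mice and BBR mouse 3 below them, so the groups overlapped. The log2 fold change was 0.27 (95% interval -0.23 to 0.76, limma adjusted p = 0.407). Leaving out BBR mouse 3 gave 0.51 and a call (adjusted p = 0.0139).

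Stat5a and Stat5b encode closely related proteins that act after growth hormone, prolactin and interleukin-2. Stat5b was at 6.40, 8.11 and 4.2 FPKM in BBR mice 1, 2 and 3 and at 4.63, 4.81 and 4.09 FPKM in SASP mice 1, 2 and 3. BBR mice 1 and 2 were again the highest, while BBR mouse 3 lay within the SASP range. Its log2 fold change was 0.36 (95% interval -0.15 to 0.86, adjusted p = 0.281 in limma), and 0.58 with a call without BBR mouse 3 (adjusted p = 0.0225). Stat5a was at 2.60, 2.85 and 1.92 FPKM in BBR mice 1, 2 and 3 and at 2.36, 2.35 and 2.59 FPKM in SASP mice 1, 2 and 3. Its groups overlapped, with a log2 fold change of 0.00 (95% interval -0.35 to 0.35), and its sign changed with the scaling used. Stat5b exceeded Stat5a in every mouse, 2.19 to 2.85 times in BBR and 1.58 to 2.05 times in SASP mice. Because the genes are close paralogs and the reads were short, the division of reads between them by the authors' software is uncertain.

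Stat4, the interleukin-12 STAT of T cells and natural killer cells, was too low to be tested. It was listed at 0.10, 0.32 and 0.12 FPKM in BBR mice 1, 2 and 3 and at 0.64, 0.28 and 0.41 FPKM in SASP mice 1, 2 and 3. The groups overlapped, since BBR mouse 2 was above SASP mouse 2. At the estimated depth these values rest on about 4.9 to 34 reads each. With no filter on low values its log2 fold change was -0.29 and did not pass the threshold in limma (adjusted p = 0.175). Markers of the cells that use it were also low, as the summed level of 9 T cell genes was 4.62 to 7.09 FPKM under BBR and 3.62 to 8.28 FPKM under SASP, and that of 7 natural killer and cytotoxic genes 1.92 to 4.92 and 2.64 to 6.15 FPKM.

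Jak1 and Jak2, the kinases shared by most cytokine receptors of the gut and both used by the interferon gamma receptor, showed no difference past the threshold. Jak1 was at 39.3, 37.0 and 41.6 FPKM in BBR mice 1, 2 and 3 and at 32.5, 35.0 and 37.9 FPKM in SASP mice 1, 2 and 3. Jak2 was at 29.1, 30.5 and 25.6 FPKM in BBR mice 1, 2 and 3 and at 23.8, 26.3 and 23.6 FPKM in SASP mice 1, 2 and 3. In both genes the BBR mean was higher, and the groups overlapped. The log2 fold change of Jak1 was 0.16 (95% interval -0.08 to 0.40, adjusted p = 0.314) and that of Jak2 was 0.20 (95% interval -0.06 to 0.45, adjusted p = 0.243 in limma). Jak1 was 1.21 to 1.63 times as high as Jak2 in BBR mice and 1.33 to 1.60 times in SASP mice.

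**Figure D2:**
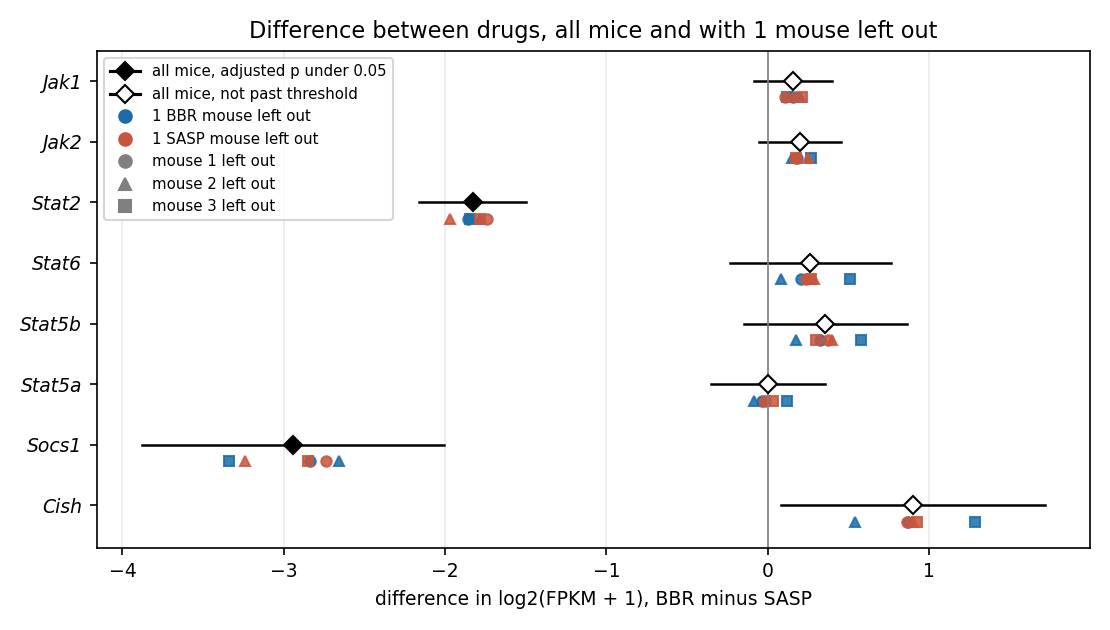
Difference in log2(FPKM + 1), BBR minus SASP (horizontal), for the 8 tested genes (vertical); diamonds give the fit of all mice with its 95% interval, filled where the limma adjusted p was under 0.05, and small markers below give the value with 1 BBR (blue) or SASP (red) mouse left out. Stat2 and Socs1 lie to the left of 0 in every fit, while Cish, Stat5b and Stat6 move furthest to the right when BBR mouse 3 is left out.

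BBR mouse 3 stood apart from its group, with a correlation across genes of at most 0.953 with the other BBR mice, where the closest BBR pair had 0.987 and SASP pairs had 0.982 to 0.989. This correlation runs across genes, which are no replicates, and only describes the libraries. Its smooth muscle genes were also the highest, with a summed level of 10 such genes of 7414 FPKM, against 3183 and 3402 FPKM in BBR mice 1 and 2 and 863 to 2622 FPKM in SASP mice. Without this mouse 5 of 8 members were called, Cish, Stat5b and Stat6 higher and Stat2 and Socs1 lower, where 33.8% of all tested genes were called. With array quality weights, which lower the weight of a mouse unlike its group, 6 of 8 were called, Jak2 being added, where 59.0% of all genes were called. With the smooth muscle covariate 0 of 8 were called by limma, where 0.149% of all genes were called. At an unadjusted p under 0.05 the same fit gave 3 of 8, Stat2, Socs1 and Cish, where 17.0% of all genes passed. The covariate leaves 1 degree of freedom less for the error, and the part of muscle content in the members' differences was not tested.

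The order of levels differed between the drugs. By group mean in BBR mice it ran from Jak1 through Jak2, Stat6, Stat2, Cish, Stat5b, Socs1 and Stat5a to Stat4. In SASP mice it ran from Stat2 through Jak1, Socs1, Jak2, Stat6, Stat5b, Cish and Stat5a to Stat4. In BBR mice the neighbours Jak2 and Stat6 overlapped, and so did each neighbouring pair from Stat2 down to Stat5a. In SASP mice the ranges of Stat2, Jak1, Socs1 and Jak2 overlapped from one to the next, and all later neighbours were apart.

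Among the 5 STAT genes described here, Stat2 made up 18.4% to 31.2% of the summed FPKM in BBR mice and 53.3% to 62.3% in SASP mice. Stat6 made up 51.5% to 61.3% in BBR and 27.6% to 35.1% in SASP mice. Stat6 was thus the most abundant of the 5 in every BBR mouse and Stat2 in every SASP mouse. Stat3, which is not among the 5, lay above both in every mouse. It was at 44.47, 47.08 and 69.75 FPKM under BBR against 53.07, 66.26 and 63.58 FPKM under SASP. Its groups overlapped (log2 fold change -0.20, limma adjusted p = 0.481). The ratio of Stat2 to Stat6 was 0.301 to 0.605 in BBR and 1.52 to 2.26 in SASP mice, without overlap. The summed level of the 5 genes was 36.1 to 55.8 FPKM under BBR and 64.2 to 75.9 FPKM under SASP.

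**Figure D3:**
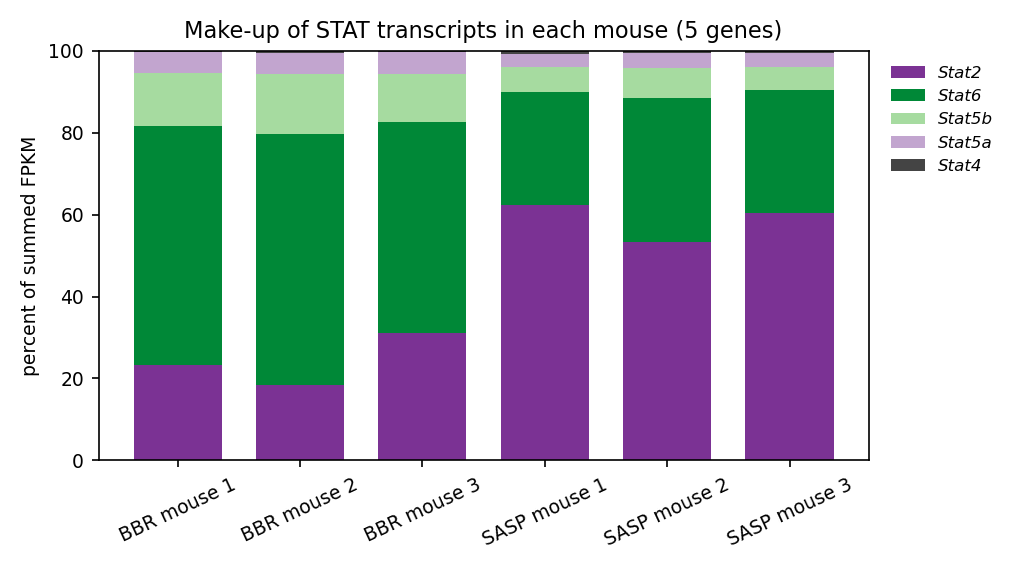
Percent of the summed FPKM of Stat2, Stat4, Stat5a, Stat5b and Stat6 (vertical) taken by each gene in each of the 6 mice (horizontal). Stat6 takes the largest part in the 3 BBR mice and Stat2 in the 3 SASP mice, and Stat4 stays under 1% (0.202% to 0.843%).

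Other genes of the pathway were taken from lists of kinases, inhibitors and receptor subunits. Of 56 such genes, 55 were in the table and 42 were tested. Of these 42, 2 were called higher and 2 lower, a share close to that of all tested genes, and their median log2 fold change was 0.07. Jak3, the kinase of the common gamma chain, was lower, with 3.08, 2.75 and 3.46 FPKM under BBR against 5.65, 6.52 and 5.90 FPKM under SASP (log2 fold change -0.78, adjusted p = 0.0206). Il15ra, the alpha subunit of the interleukin-15 receptor, was lower as well, with 4.56, 3.46 and 3.37 FPKM against 8.77, 9.12 and 8.21 FPKM (log2 fold change -1.02, adjusted p = 0.0132). All 3 BBR values of both genes lay below all SASP values.

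Socs2, a relative of Cish that is likewise induced through Stat5, was higher under BBR. It was at 12.7, 16.9 and 8.67 FPKM under BBR against 3.18, 4.48 and 4.85 FPKM under SASP (log2 fold change 1.38, adjusted p = 0.0247). BBR mouse 2 was the highest and BBR mouse 3 the lowest of its group, as for Cish, Stat5b, Stat5a, Stat6 and Jak2. Il11ra1, a receptor subunit for interleukin-11, was at 17.3, 24.0 and 20.9 FPKM under BBR against 12.03, 12.3 and 14.3 FPKM under SASP (log2 fold change 0.64, adjusted p = 0.0424). Without BBR mouse 1, BBR mouse 2 or SASP mouse 2, only Il15ra of the 42 was called. Over all tested genes these fits called 131 of 11912, 371 of 11864 and 405 of 11899, in that order. Without SASP mouse 1 or SASP mouse 3, 0 of 42 were called, where 59 of 11948 and 51 of 11917 genes were called. In the latter fits limma gave 6 and 8 of the 42 an unadjusted p under 0.05, against 20.0% and 22.1% of all genes. Without BBR mouse 3, 23 of the 42 were called, where 33.8% of all tested genes were called.

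Receptors upstream of the described STAT genes were mostly not called. Of 6 tested interferon receptor genes 0 were called by limma and 2 had an unadjusted p under 0.05, as did 31.8% of all genes, and Ifngr2 came nearest (log2 fold change 0.45, adjusted p = 0.0734). Il4ra, the receptor chain upstream of Stat6, was at 4.96, 5.87 and 11.9 FPKM under BBR against 16.5, 15.1 and 16.5 FPKM under SASP (log2 fold change -1.07, adjusted p = 0.0590). The interleukin-12 receptor genes Il12rb1 and Il12rb2, upstream of Stat4, were under 1 FPKM in every mouse. Socs3, the SOCS gene induced by the interleukin-6 family, was at 3.52, 3.38 and 79.1 FPKM under BBR against 20.8, 39.0 and 24.7 FPKM under SASP, and BBR mouse 3 decided its spread.

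Target genes were grouped by the STAT that is known to induce them. For ISGF3 the list held Irf9, the DNA-binding partner of Stat2, and antiviral genes. All 7 tested genes were called lower under BBR, with a median log2 fold change of -2.61 and no overlap between groups. Mx1, also on the list, was not in the table. The list was chosen with earlier results of these data known, so these counts only describe it. Over all tested genes 5.04% were called lower and 37.9% did not overlap in either direction. Irf9 was at 18.4, 14.98 and 24.2 FPKM under BBR against 39.2, 40.8 and 44.2 FPKM under SASP (log2 fold change -1.09, adjusted p = 0.0186). Isg15, a ubiquitin-like antiviral protein gene, was at 12.6, 5.02 and 12.4 FPKM against 143, 64.9 and 122 FPKM (log2 fold change -3.35, adjusted p = 0.00891). The antiviral genes Ifit3 and Oas2, of which Oas2 encodes an RNA sensor, were lower under BBR by 2.56 and 2.61 (adjusted p = 0.00509 and 0.00792 in limma). All 7 stayed lower in each fit that left out 1 mouse. Only 2 were called without SASP mouse 1, 1 without SASP mouse 3 and 3 without BBR mouse 1. Over all tested genes these fits called 59 of 11948, 51 of 11917 and 131 of 11912, in that order. With the smooth muscle covariate 0 of the 7 were called, where 0.149% of all genes were called.

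The Stat5 list moved both ways. Of 6 tested genes 1 was called higher under BBR, Socs2, and 2 were called lower. Ccnd1, the cyclin D1 gene, was at 11.1, 12.2 and 8.65 FPKM under BBR against 34.9, 41.3 and 41.7 FPKM under SASP (log2 fold change -1.80, adjusted p = 0.00245). Pim1, a survival kinase gene, was at 6.11, 9.08 and 8.55 FPKM against 20.7, 12.7 and 16.4 FPKM (log2 fold change -0.97, adjusted p = 0.0393). Both genes are also used by other pathways. Ccnd1 was called in each fit that left out 1 mouse, but not with the smooth muscle covariate. Pim1 kept its call only without BBR mouse 3 or SASP mouse 2, and Socs2 only without BBR mouse 3, and neither was called with that covariate. Bcl2l1 differed by 0.08 (adjusted p = 0.678).

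Of 4 tested genes on the Stat6 list, 1 was called. Chil3, a chitinase-like gene of macrophages, was lower, with 0.07, 0.00 and 0.52 FPKM under BBR against 2.03, 1.85 and 4.0 FPKM under SASP (log2 fold change -1.58, adjusted p = 0.0220). Among fits that left out 1 mouse, Chil3 was called only in the one without BBR mouse 3. It passed the filter only through the 3 SASP mice, so it was not tested in fits that left out a SASP mouse. Retnlb, a goblet cell gene, was at 4.92, 0.73 and 42.7 FPKM under BBR against 73.6, 103 and 50.4 FPKM under SASP, without overlap or a call (log2 fold change -3.27, adjusted p = 0.0897). Retnla differed by 1.30 in the other direction (adjusted p = 0.0519). On the Stat4 list only Furin of 6 genes was tested (log2 fold change 0.13, adjusted p = 0.617). Ifng, the interferon gamma gene, was listed at 0 in all 3 BBR mice and at 1.19, 0.30 and 0.21 FPKM in SASP mice 1, 2 and 3.

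**Figure D4:**
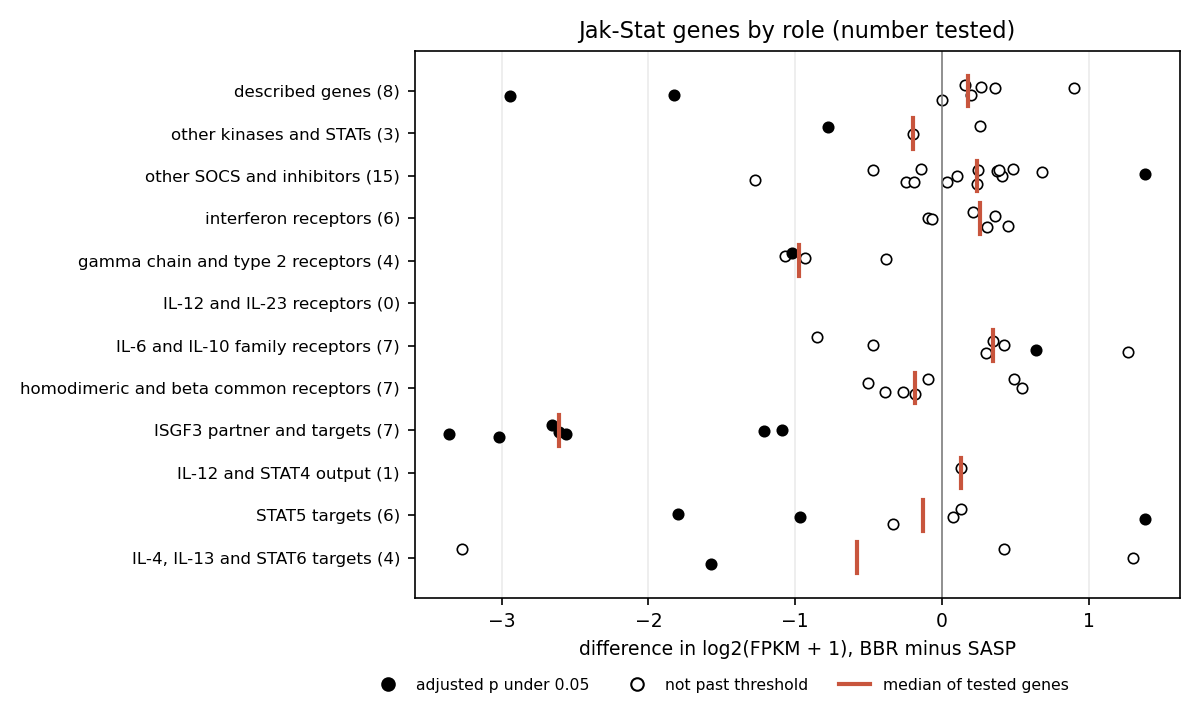
Difference in log2(FPKM + 1), BBR minus SASP (horizontal), of each tested gene in the described set and in lists by role (vertical, number tested in brackets); filled circles passed the adjusted threshold and red bars are medians. The 7 ISGF3 genes all lie left of 0 and are filled, the 4 gamma chain and type 2 receptor genes lie left with 1 filled, and the inhibitor, interferon receptor and remaining receptor lists lie on both sides.

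Cell type markers were read beside these values. Epithelial markers were high in all mice, with Epcam at 833 to 1101 FPKM, and their summed level overlapped between groups. Of the 10 epithelial genes 7 were higher and 3 lower under BBR. Krt18 and Cdx2 were called higher and Vil1 lower, with differences of 0.75, 1.496 and -0.55 on the log2(FPKM + 1) scale. All 6 tested pan-leukocyte genes were lower under BBR, 0 of them past the threshold in limma and 4 at an unadjusted p under 0.05, with a summed level of 19.1 to 30.8 FPKM under BBR and 29.4 to 69.3 FPKM under SASP. The highest such sum was in SASP mouse 1, which also had the highest Stat2, Socs1 and Stat4. BBR mouse 2 had the highest sum of its group, above that of SASP mouse 2, and the lowest Stat2 and Socs1 of all 6 mice. Of 4 tested B and plasma cell genes 3 were lower under BBR and 1 was called, Cd79b, which passed the filter only through the 3 SASP mice. Among 8 tested macrophage genes 5 were lower and 1 was called, Cd14, and the sums were 88.0 to 110.6 FPKM under BBR and 164 to 191 FPKM under SASP. Without Cd14 the sums were 55.7 to 90.3 and 74.4 to 88.2 FPKM and overlapped, and Csf1r, Adgre1 and the C1q genes overlapped. Of 5 tested granulocyte genes 4 were lower and 1 was called, S100a8, which was listed at 0 in BBR mice 1 and 2. Fibroblast genes were higher in 8 of 8 cases, 4 of them called, and smooth muscle genes in 10 of 10, with 0 called by limma and 8 at an unadjusted p under 0.05. Endothelial genes were higher in 5 of 5 cases, 1 of them called, Emcn, and their sums were 15.3 to 28.3 FPKM under BBR and 7.58 to 10.9 FPKM under SASP. For comparison, 7337 of all 12072 tested genes were higher under BBR. Over all tested genes 3.82% were called higher, 5.04% were called lower and 31.8% had an unadjusted p under 0.05 in limma. The part of these cell types in the differences of Stat2 and Socs1 was not tested.

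The genes whose log2 values were most like those of Socs1 over the 6 mice were Washc4, Xdh and Rrbp1, with Pearson correlations of 0.999, 0.999 and 0.997. For Cish they were Mef2d, Nmt2 and Zbtb6, with 0.998, 0.998 and 0.997. These are descriptions over 6 points that share libraries and the difference between drugs, picked as the highest of 12072 genes.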

How the data were processed

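Colorectal tissue of 3 BBR and 3 SASP mice was profiled by RNA sequencing, with groups taken from the treatment label. Mouse numbers follow accession order and pair no mice. The deposited FPKM values were calculated by the authors with RSEM (v1.2.12) after alignment with Bowtie2 (v2.2.5), per gene and mouse, and hold 2 decimals. The submitters' processing notes name build mm9, and the annotation is not given in the sources used here. The study's methods describe rRNA depletion with an Illumina kit and short single-end reads on a BGI platform, whereas the labels name an Illumina TruSeq kit. Its sequencing methods name rectal samples and do not list sulfasalazine mice. Its results speak of colon samples for the sulfasalazine sequencing. Whether both groups were taken from the same site is therefore not clear.

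Since the values are normalized, no test for counts was applied. They were transformed as log2(FPKM + 1), which understates changes of low genes. Genes with at least 1 FPKM in at least 3 of 6 mice were fitted in limma 3.58.1 under R 4.3.3 (moderated, trended variance, two-sided), with Benjamini-Hochberg adjustment over all 12072 tested genes and a threshold of 0.05. The fit was tested on simulated data with independent normal noise for each gene and mouse. That setting holds no mouse unlike its group, so it does not cover the case of BBR mouse 3. Depth was estimated by taking the median value of short genes detected in a single mouse as 1 read, rests on 31 to 56 genes per mouse and is approximate. At most 0.389% of tested genes were identical between any 2 mice.

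The members, lists and alternatives were chosen with earlier results of these data known. All members are named, with each pathway gene past the threshold, up to 3 genes of smallest p per list, and for Socs1 and Cish the 3 genes of highest correlation. Genes named outside this rule, after their values were seen, were Socs3, Il12rb1, Il12rb2, Irf9, Ifng, Bcl2l1, Epcam, Csf1r, Adgre1 and the C1q genes. Alternatives covered the pseudocount, the filter, scaling, variance trend, weights, a smooth muscle covariate, the threshold and each mouse left out. Those for target lists were added after seeing the data.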

Additional observations from a re-analysis of the deposited data

How the results depend on the processing

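With all 6 mice, 1069 genes, 2 of 8 members and 4 of 42 other pathway genes differed. Over the fits that each left out 1 mouse these counts ranged from 51 to 4018 genes, from 1 to 5 members and from 0 to 23 pathway genes, with the lowest gene count without SASP mouse 3 and the highest without BBR mouse 3. Array quality weights gave 7126 genes, 6 members and 33 pathway genes. The smooth muscle covariate gave 18 genes, 0 members and 0 pathway genes in limma, with 3 of 8 members, 15 of 42 pathway genes and 17.0% of all genes at an unadjusted p under 0.05, in a fit with 1 degree of freedom less. A threshold of unadjusted p at most 0.05 gave 3837 genes (31.8%) and 18 pathway genes, with 3 of 8 members. No filter on low values, which adds genes to the adjustment, gave 608 genes, quantile normalization 1737 and median-ratio scaling 1713. The cause of the other shifts was not tested. Stat2 and Socs1 were lower under BBR in all 15 alternatives, and Socs1 by 2.65 to 3.35. Jak1, Jak2, Stat5b, Stat6 and Cish kept their sign wherever they were tested, and array quality weights called Cish (0.96), Stat5b (0.52), Stat6 (0.39) and Jak2 (0.27). Stat5a had no stable direction. It was -0.0037 and -0.0045 with pseudocounts of 0.1 and 0.01, -0.14 after quantile normalization, -0.067 after median-ratio scaling, and ranged from -0.082 to 0.12 over left-out mice. Without a filter Stat4 differed by -0.29 (adjusted p = 0.175). Means of at least 5 FPKM removed Stat5a and Cish from the test. No paired analysis was possible because the mouse numbers follow accession order and mark nothing shared between groups.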
